A study of Homo sapiens with 4 samples.

Results

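The p53, RB and cyclin genes described here are MDM2, RB1, CDKN1A, CDKN1B, CDKN2C, CCND1, CDK4, CDK6 and CCNE1. They were chosen by name, with earlier results of these data known, and are 9 of the 19970 protein-coding genes on chromosomes 1 to 22 and X in GENCODE release 44. Their H3K27ac was read from 4 lists of ChIP-seq peaks, 2 replicates each of MDA-MB-231 and Hs578T. Both are established human lines of triple-negative breast cancer with mesenchymal features, so they lack hormone receptors and HER2 amplification. Cells of every library had been starved of serum for 8 h and given 10 ng/ml of the cytokine TWEAK, the ligand of the receptor Fn14, for 48 h with 1 renewal. TWEAK was then withdrawn, for 72 h according to the series' design text, whereas the study's own text gives a longer time. Untreated cells were not among the libraries analysed here, and how TWEAK or its withdrawal bears on these genes was therefore not measured.

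The 9 genes encode the circuit that decides whether a cell enters S phase. Cyclin D1 (CCND1) activates CDK4 and CDK6, and cyclin E1 (CCNE1) activates CDK2, and these kinases phosphorylate the RB protein (RB1), which then releases E2F transcription factors. The inhibitors p21 (CDKN1A), p27 (CDKN1B) and p18 (CDKN2C) hold the kinases back. The tumour suppressor p53 induces CDKN1A, and also MDM2, whose product is the ubiquitin ligase that destroys p53. H3K27ac is a mark of active promoters and enhancers.

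Before any member is described, 1 list has to be set apart. Under the label MDA-MB-231 replicate 1 there were 209 peaks on these chromosomes, against 43353 in MDA-MB-231 replicate 2, 46330 in Hs578T replicate 1 and 44920 in Hs578T replicate 2. Of the MDA-MB-231 replicate 2 peaks, 94.2% and 91.2% were overlapped in Hs578T replicates 1 and 2. For Hs578T replicate 1 the share was 88.8% in Hs578T replicate 2 and 86.4% in MDA-MB-231 replicate 2. For Hs578T replicate 2 it was 93.4% in Hs578T replicate 1 and 87.9% in MDA-MB-231 replicate 2. With 1 MDA-MB-231 list of this size, grouping by line was not tested, and each list is named by its label. As a check of the labelled tissue, which cannot tell the lines apart, the mesenchymal genes VIM, AXL, CD44, FN1 and ZEB1 had a peak at the start in the 3 large lists, and ESR1, PGR, GATA3, FOXA1, CDH1, ESRP1 and the blood gene PTPRC had none. EPCAM was marked in MDA-MB-231 replicate 2 and Hs578T replicate 1, and ERBB2 carried a weak peak in all 3 large lists, with a fold enrichment of 3.92, 3.52 and 2.68. None of these markers had a peak in the small list. Values below are given in the order MDA-MB-231 replicate 2, Hs578T replicate 1, Hs578T replicate 2 wherever 3 values stand together. No test between lines was made, because 4 lists of 2 per line split in 3 ways and an exact permutation test could not give a p-value below 0.333.

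To show the sequence just before the start, the 250 bases before the canonical start of 6 genes were taken from hg38. The stretch shown lay outside the promoter peak for CCNE1 in both Hs578T lists and for CDKN1A in Hs578T replicate 2. In them the SP1 motif GGGCGG, the CCAAT box and the E2F motifs TTTCCCGC and TTTGGCGC are in capitals, on either strand. Motifs may overlap, as the CCAAT boxes of MDM2 on opposite strands do and as the last pair of SP1 motifs of CDKN1A does.
MDM2 promoter, chr12:68807927-68808176, plus strand: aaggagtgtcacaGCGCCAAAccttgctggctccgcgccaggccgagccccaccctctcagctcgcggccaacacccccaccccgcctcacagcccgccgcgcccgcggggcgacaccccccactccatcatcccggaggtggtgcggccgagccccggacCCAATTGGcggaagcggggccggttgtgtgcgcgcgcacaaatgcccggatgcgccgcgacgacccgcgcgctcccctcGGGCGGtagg
RB1 promoter, chr13:48303501-48303750, plus strand: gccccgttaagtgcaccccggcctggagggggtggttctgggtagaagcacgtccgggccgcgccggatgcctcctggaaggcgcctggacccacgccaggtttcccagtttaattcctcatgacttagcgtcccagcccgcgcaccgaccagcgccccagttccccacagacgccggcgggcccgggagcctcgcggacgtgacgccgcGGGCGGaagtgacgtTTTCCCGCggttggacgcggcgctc
CDKN1A promoter, chr6:36678464-36678713, plus strand: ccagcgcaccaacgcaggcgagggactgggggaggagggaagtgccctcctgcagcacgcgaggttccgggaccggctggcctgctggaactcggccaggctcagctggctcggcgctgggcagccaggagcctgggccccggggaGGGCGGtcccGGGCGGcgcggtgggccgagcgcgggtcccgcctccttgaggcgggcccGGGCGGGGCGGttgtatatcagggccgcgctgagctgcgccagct
CDKN1B promoter, chr12:12717118-12717367, plus strand: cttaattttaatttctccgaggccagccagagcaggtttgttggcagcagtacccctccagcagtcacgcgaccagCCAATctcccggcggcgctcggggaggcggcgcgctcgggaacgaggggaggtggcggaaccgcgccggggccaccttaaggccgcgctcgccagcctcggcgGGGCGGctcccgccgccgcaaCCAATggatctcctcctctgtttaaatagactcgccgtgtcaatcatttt
CCND1 promoter, chr11:69640906-69641155, plus strand: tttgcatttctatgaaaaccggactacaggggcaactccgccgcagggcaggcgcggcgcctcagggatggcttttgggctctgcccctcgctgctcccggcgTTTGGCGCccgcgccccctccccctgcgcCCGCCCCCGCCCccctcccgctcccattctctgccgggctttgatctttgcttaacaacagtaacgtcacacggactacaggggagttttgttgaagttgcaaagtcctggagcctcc
CCNE1 promoter, chr19:29811741-29811990, plus strand: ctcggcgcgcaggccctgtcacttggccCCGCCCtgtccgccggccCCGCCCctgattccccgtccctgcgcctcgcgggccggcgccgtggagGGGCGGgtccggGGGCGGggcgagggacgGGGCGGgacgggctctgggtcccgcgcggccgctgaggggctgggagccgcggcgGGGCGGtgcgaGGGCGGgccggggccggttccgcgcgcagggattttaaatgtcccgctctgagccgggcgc

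In the 300 bases before the start, an SP1 motif was present in 9 of 9 members, against 60.8% of all coding genes. Motif shares among genes with a promoter peak, as all members are in the large lists, were not computed. CCNE1 held 10 of these motifs, CDKN1A 4, and CDK4 and CDK6 3 each. An E2F motif was present in MDM2, RB1 and CCND1, and in 3.08% of all coding genes. In RB1 the E2F motif began 25 bases before the start and an SP1 motif began 40 bases before the start. A CCAAT box was present in MDM2, CDKN1B and CDKN2C, against 37.9% of all genes. The TATA box letters TATAAA were found in no member (11.1% of all genes), and neither was the AP-1 motif TGAGTCA or TGACTCA (3.60%). GC content ran from 49.0% in CDKN2C to 84.0% in CCNE1. The median for all coding genes was 62.0%, and CDKN2C was the only member below it. A match is a stretch of letters and no evidence that a factor bound there.

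MDM2 and CDKN1A are the members that p53 is best known to induce, so the p53 consensus (2 half-sites without spacer) was searched within 3 kb of each start. No member held an exact match or a match with 1 mismatch, and 0.0801% and 0.636% of all genes did. Allowing 2 mismatches with the core C and G bases kept, a setting chosen after seeing the data, MDM2 and CDKN1A were the members with a match, and 4.65% of all genes had one. The core bases are in capitals.
MDM2 site, chr12:68808923-68808942, plus strand: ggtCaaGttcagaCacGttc
CDKN1A site, chr6:36676449-36676468, plus strand: gaaCatGtcccaaCatGttg

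The MDM2 site began 746 bases after the canonical start, in sequence that the peak covered in all 3 large lists. The CDKN1A site began 2265 bases before the canonical start, across the annotated beginning of the gene at chr6:36676460, and lay in no peak. The nearest edge of any peak was 1848, 1778 and 2480 bases away. An exact p53 consensus was found in none of the 89, 96 and 94 peaks of the members' windows, and in 0.0369%, 0.0367% and 0.0401% of all peaks of these lists.

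All 9 members had a peak within 1 kb of the canonical start in each large list, and 0 had one in MDA-MB-231 replicate 1. Of all coding genes, 58.1%, 58.2% and 56.4% had such a peak in the large lists, and 0.0601% in the small one. Because the members were chosen with results known, their count is a description. Among marked genes the median peak width was 2762, 2924 and 2958 bp for the members, and 1792, 1897 and 1804 bp for all genes. Fold enrichment is the authors' ratio of the signal to the background of the same library, and its size is therefore read within a list only. Its median for the members was 14.01 in MDA-MB-231 replicate 2, where it was 9.18 for all marked genes. In Hs578T replicate 1 these medians were 11.8 and 8.13, and in Hs578T replicate 2 they were 10.4 and 6.86. The members were far from uniform, with broad domains at CDKN1B and CCND1 and narrow, weak peaks at CCNE1.

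**Figure D1:**
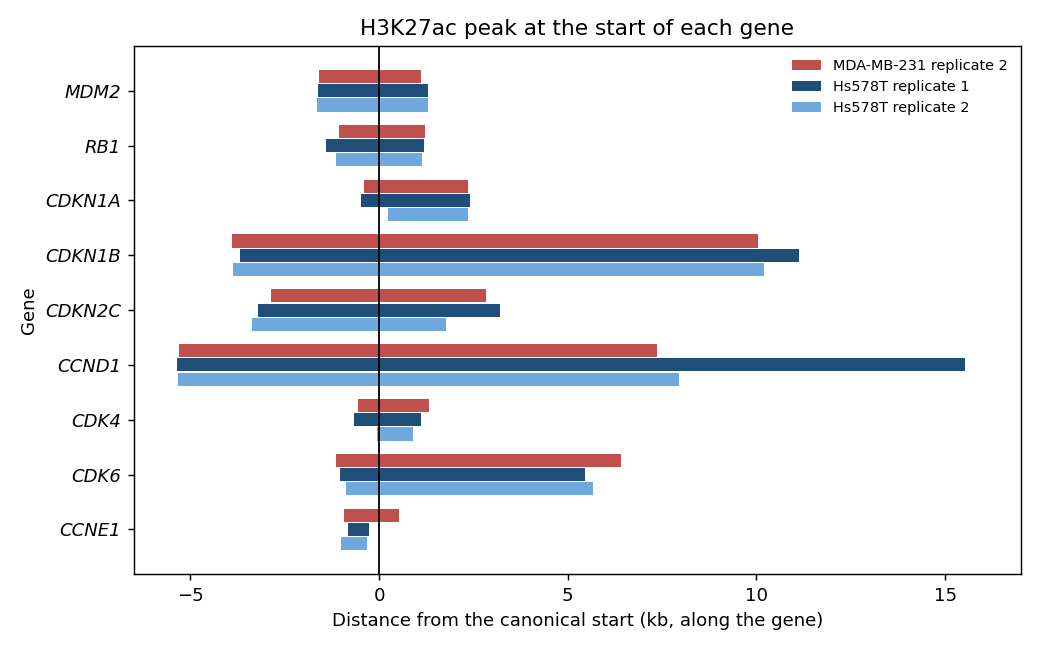
Extent of the promoter peak of each of the 9 genes, by distance from the canonical start in kb along the gene, with 1 bar for each of the 3 large lists. CDKN1B and CCND1 carry peaks of 12685 to 20867 bp, whereas the CCNE1 bars of both Hs578T lists end before the start (vertical line at 0).

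The p53 antagonist MDM2 (chr12:68808177-68845544, plus strand) had a strong promoter peak. It was 2719, 2924 and 2958 bp wide with a fold enrichment of 24.6, 18.5 and 13.6. Those folds stood at the 97.0th, 92.5th and 89.4th percentile among the promoter peaks of each list, and the widths at the 74.4th, 74.9th and 77.9th. The peak ran from 1601 to 1656 bp before the start to between 1117 and 1301 bp after it. No other peak in the window of the gene and 100 kb on either side came near it, since the next highest fold was 7.15, 7.01 and 5.86, at the start of SLC35E3.

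RB1 (chr13:48303744-48599436, plus strand), the pocket protein that binds E2F, was similar at its promoter and sparse elsewhere. Its promoter peak was 2298, 2618 and 2278 bp wide, and the fold of 22.7, 18.8 and 14.9 lay at the 95.6th, 92.9th and 92.9th percentile. The gene is 295693 bp long, yet peaks covered 0.968%, 1.33% and 1.27% of its body. The medians over all coding genes were 2.64%, 2.93% and 2.57%. Apart from the promoter, the strongest peak of its window lay at the start of RCBTB2, with a fold of 11.4, 9.74 and 7.06. That peak lies within the RB1 body and gave 1629, 1701 and 1664 of the 2863, 3938 and 3761 bases covered there.

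The small list contributed its single peak of all 9 windows here. In MDA-MB-231 replicate 1 a peak of 226 bp with a fold of 4.44 lay 124.5 kb after the RB1 start, at the start of the non-coding gene Metazoa_SRP. Both Hs578T lists had a peak over it, 1030 and 956 bp wide with a fold of 2.87 and 2.94. No peak of MDA-MB-231 replicate 2 was found there. The RB1 promoter itself was unmarked in the small list.

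CDKN1A (chr6:36676460-36687337, plus strand), which encodes the p53-induced inhibitor p21, had a promoter peak of above-median width and low enrichment. The peak was 2762, 2890 and 2132 bp wide, at the 75.3rd, 74.3rd and 61.0th percentile. Its fold of 5.67, 4.24 and 3.83 stood at the 21.7th, 13.7th and 12.9th percentile, the lowest of the 9 members in both Hs578T lists. The peak lay wholly inside the annotated gene, which begins before the canonical start, and ended 2363, 2421 and 2365 bp after that start. It began 398 and 468 bp before the start in the first pair of lists, but 234 bp after it in Hs578T replicate 2, where the start itself was unmarked. In all 3 lists, 3 other peaks of the window were stronger. These lay at the start of the splicing factor gene SRSF3 (fold 16.01, 18.9 and 17.04), in intergenic sequence centred at -100.2 kb from the CDKN1A start (14.7, 18.5 and 14.8) and at the non-coding gene ENSG00000285888 at 91.2 kb (16.8, 20.4 and 15.8). Around the gene the sequence was bare, since the promoter peak was the only one in any list between -44.4 and 74.1 kb.

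CDKN1B (chr12:12685498-12722369, plus strand), which encodes the CDK inhibitor p27, had the strongest promoter peak of the members. The peak was 13936, 14819 and 14094 bp wide, from 3905, 3682 and 3878 bp before the start to 10030, 11136 and 10215 bp after it. In each list it ran past the end of the gene and over another annotated start. Width stood at the 99.4th, 99.2nd and 99.4th percentile. The fold of 28.8, 29.8 and 20.8 stood at the 98.8th, 99.4th and 98.4th. The widest of the 3 peaks exceeded the narrowest by a ratio of 1.06, the smallest ratio among the members.

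The CDKN1B window was also the most densely marked of the 9. Peaks covered 55579, 59477 and 57087 bp, or 23.5%, 25.1% and 24.1% of it, and these shares stood at the 98.9th, 98.7th and 98.9th percentile of all coding genes. Of those bases, 41643, 44658 and 42993 lay outside the promoter peak. Other strong peaks lay at the starts of GPR19, CREBL2 and DDX47 and inside APOLD1, whose annotated span runs downstream of CDKN1B. The GPR19 peak had a fold of 23.8, 23.6 and 20.1, below that of CDKN1B in every list.

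CDKN2C (chr1:50960745-50974634, plus strand), which encodes the CDK4 and CDK6 inhibitor p18, carried a broad promoter peak of moderate enrichment. It was 5689, 6390 and 5149 bp wide, at the 93.9th, 94.1st and 92.8th percentile, and had a fold of 14.3, 11.8 and 10.4, at the 78.5th, 73.3rd and 76.9th. A stronger peak was centred just beyond the gene, 6.97 to 7.97 kb after the start, with a fold of 18.3, 15.8 and 11.3. All 5 merged regions of the CDKN2C window were found in the 3 large lists.

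CCND1 (chr11:69641156-69654474, plus strand), the gene of cyclin D1, lay almost entirely within H3K27ac. Peaks covered 91.6%, 100% and 93.6% of the gene body. The promoter peak was 12685, 20867 and 13277 bp wide, at the 99.2nd, 99.7th and 99.3rd percentile, with a fold of 13.8, 10.1 and 8.69, at the 76.5th, 64.5th and 66.6th. Width was thus near the top of each list and enrichment was not. The larger width in Hs578T replicate 1 came from 1 call that spanned 2 peaks of the other lists. Within that same merged region the covered bases were 19114, 20867 and 19374. The second strongest peak of the window, at the start of LTO1, had a fold of 11.9, 9.33 and 7.27.

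The partners of cyclin D1, CDK4 and CDK6, differed in how their marks were arranged. CDK4 (chr12:57747727-57756013, minus strand) sits among other genes, with 11 further coding starts in its window. Its promoter peak was 1888, 1795 and 944 bp wide, at the 53.5th, 46.2nd and 16.8th percentile, and the widest of the 3 exceeded the narrowest by a ratio of 2. The fold of 14.01, 15.2 and 14.5 stood at the 77.5th, 85.5th and 92.0th percentile. A peak shared by the starts of METTL1 and EEF1AKMT3 was stronger in MDA-MB-231 replicate 2 and Hs578T replicate 1, at 15.6 and 15.5.

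CDK6 (chr7:92604921-92836573, minus strand) carried most of its mark inside the gene. Its promoter peak was 7548, 6480 and 6556 bp wide, at the 96.9th, 94.3rd and 95.6th percentile, and extended 6405, 5449 and 5668 bp into the gene. The fold of 13.9, 10.4 and 7.44 stood at the 77.0th, 66.1st and 55.5th percentile. Of the 22 peaks of the window in each list, 16, 16 and 15 were intronic. Peaks covered 57198, 54213 and 50284 bp of the gene body, or 24.7%, 23.4% and 21.7%, which stood at the 91.4th, 89.7th and 89.9th percentile of all coding genes. The widest intronic peak, centred 86.0 kb after the start, was 8565, 8579 and 8628 bp wide. In Hs578T replicate 2, 8 other peaks of the window had a higher fold than the promoter, against 2 and 4 in the other lists.

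**Figure D2:**
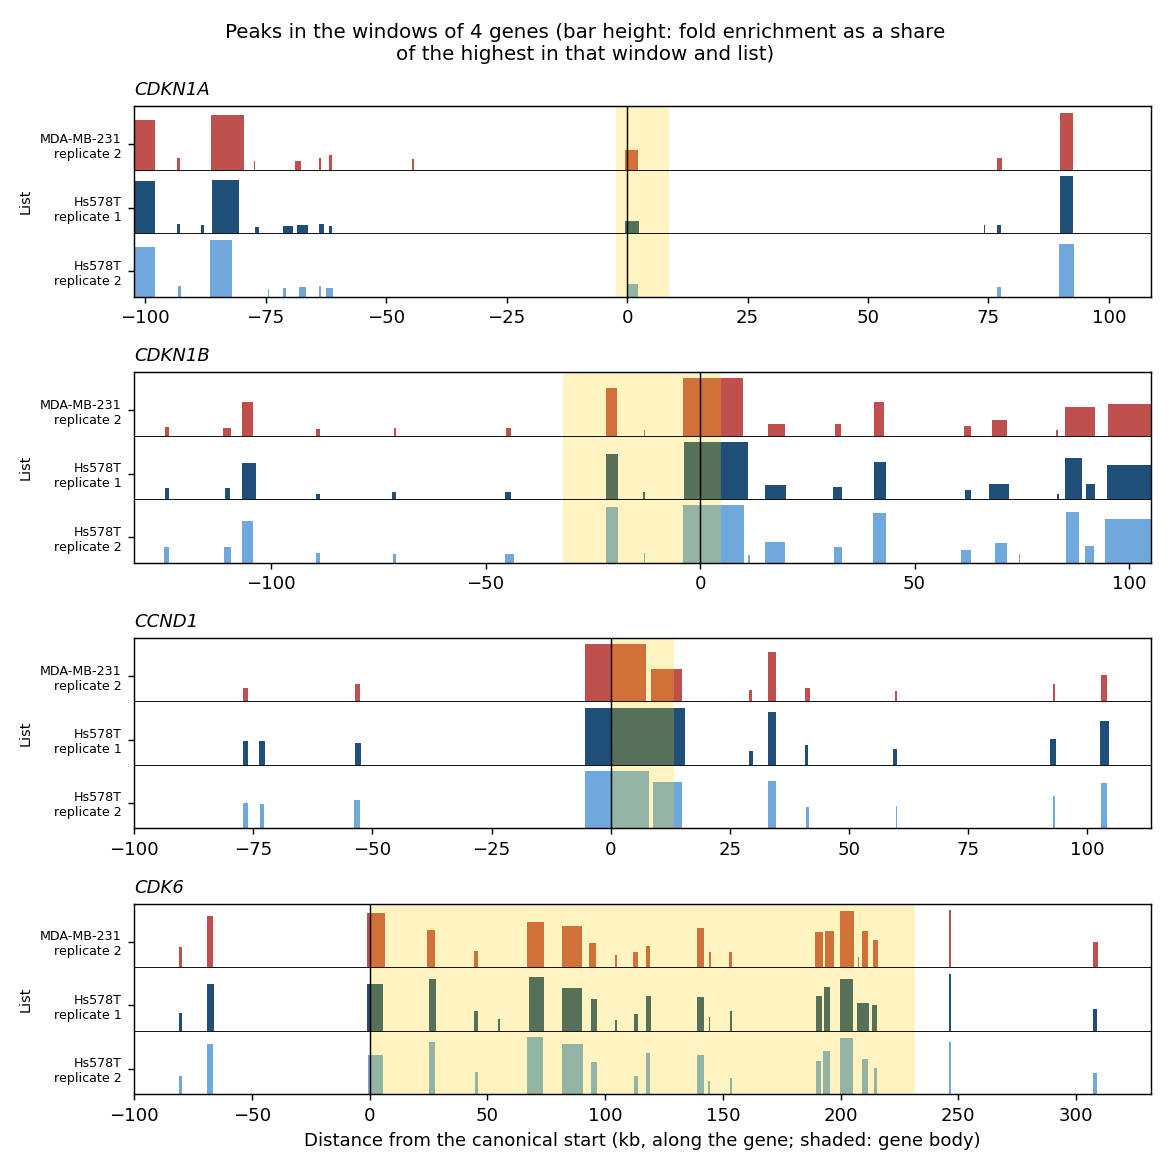
Peaks in the windows of CDKN1A, CDKN1B, CCND1 and CDK6 by distance from the start in kb along the gene, 1 lane for each large list, with bar height as the share of the highest fold enrichment in that window and list. The CDK6 body (shaded) holds 15 or 16 intronic peaks per list, whereas the CDKN1A promoter peak is low beside the distant peaks on either side.

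CCNE1 (chr19:29811991-29824312, plus strand), the gene of cyclin E1, had the narrowest promoter peak in each large list. The promoter peak was 1444, 564 and 709 bp wide, at the 35.1st, 5.40th and 9.81st percentile. The fold of 5.39, 5.78 and 4.18 stood at the 19.1st, 28.9th and 17.2nd percentile. In MDA-MB-231 replicate 2 the peak spanned the start, but in the Hs578T lists it ended 257 and 307 bp before it, so that no base of the gene body was covered. The strongest peak of its window lay at the start of C19orf12, 96730 bp from that of CCNE1, with a fold of 9.32, 6.48 and 6.10. The start itself was inside a peak for 9, 8 and 7 of the members, and the exceptions were CCNE1 in both Hs578T lists and CDKN1A in Hs578T replicate 2.

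**Figure D3:**
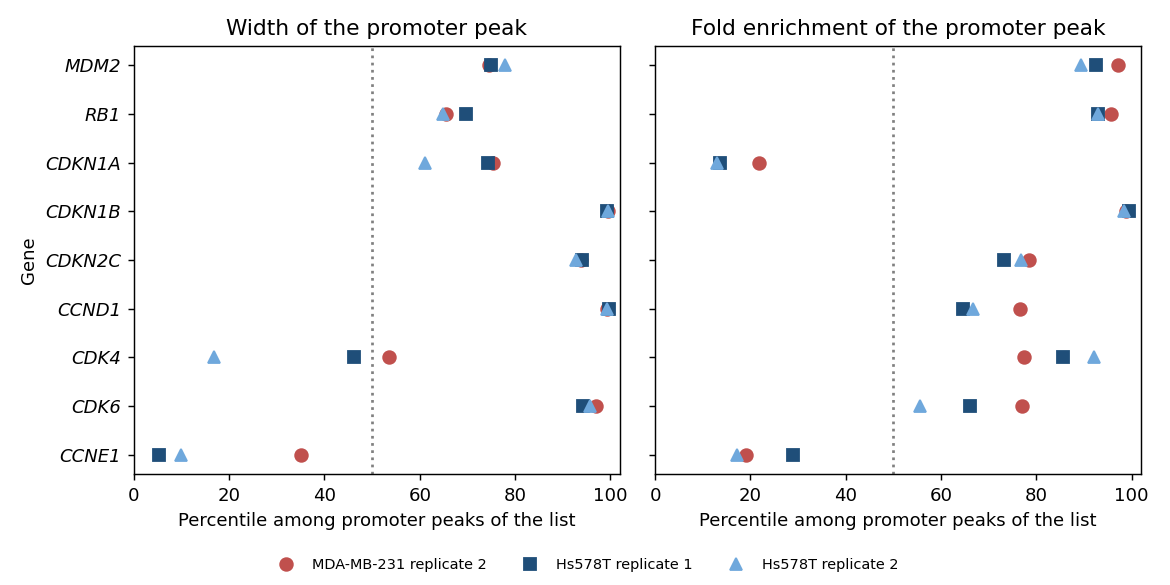
Percentile of the width (left) and of the fold enrichment (right) of each gene's promoter peak among the promoter peaks of all coding genes in the same list, with 1 symbol per large list and a dotted line at 50. CDKN1B lies above 98 on both axes, CCND1 is higher on width than on fold enrichment, CDKN1A is low on fold enrichment, and CCNE1 is low on both.

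Across the 9 windows, 2460282 bp in all, the large lists held 89, 96 and 94 peaks and the small list 1. Covered bases came to 215, 236 and 212 kb, or 8.75%, 9.58% and 8.64% of the windows. The 2 Hs578T lists gave 95 ± 1.41 peaks and 224 ± 16.4 kb (SD, n = 2). The MDA-MB-231 lists gave 45 ± 62.2 peaks (SD, n = 2), a mean that describes neither of its libraries. Without MDA-MB-231 replicate 1 the line is left with 89 peaks, and without MDA-MB-231 replicate 2 with 1.

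The share of the window that was covered varied widely among members. The median over the members was 7.38%, 8.79% and 8.28%, and over all coding genes it was 3.96%, 4.37% and 4.002%. CDK6, with 13.3% to 15.0%, and CCND1, with 12.4% to 14.8%, followed CDKN1B, and CCND1 stood above CDK6 in Hs578T replicate 1. CDKN1A came next, with 9.37% to 11.8%. RB1, with 1.05%, 1.28% and 1.23%, and CCNE1, with 2.24%, 2.13% and 1.81%, were below the median of all genes in every large list. MDM2 stood close to that median, at 3.78%, 4.63% and 4.45%.

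**Figure D4:**
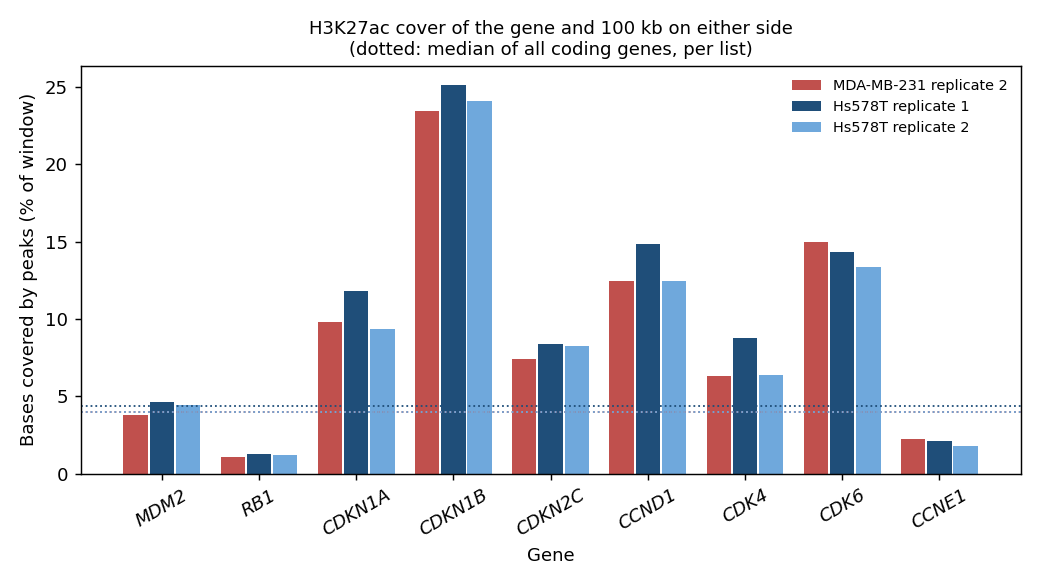
Bases covered by peaks as a percentage of the gene and 100 kb on either side, for each gene in the 3 large lists, with dotted lines at the median of all coding genes per list. The CDKN1B bars reach 23.5% to 25.1%, whereas those of RB1 and CCNE1 stay below the dotted lines.

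MDA-MB-231 replicate 2 was then placed against the range of the 2 Hs578T lists, gene by gene. It had fewer covered bases than both for 6 of 9 members, and for 47.4% of all coding genes with any peak in a large list. It had more than both for CDK6 and CCNE1, and 19.3% of those genes did. CDK6 was covered by 64586 bp against 61723 and 57583 bp, and CCNE1 by 4763 bp against 4512 and 3841 bp. Promoter peaks were narrower than both for MDM2, CDKN1B and CCND1 (3 of 9) and wider than both for CDK4, CDK6 and CCNE1 (3 of 9). Among the 11112 coding genes with a promoter peak in every large list these shares were 35.8% and 30.1%. With 1 usable MDA-MB-231 list, line and library cannot be told apart, and the number of peaks called also moves with depth, which is unknown here.

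Most of the regions were shared. Merging the peaks of the large lists gave 103 regions in the 9 windows, of which 81 (78.6%) were found in all 3, against 74.8% of 50576 regions genome-wide. A further 8 were found in 2 lists and 14 in 1. All 5 regions of CCNE1, 20 of 23 of CDK6 and 16 of 19 of CDKN1B were in all 3, while RB1 had 3 of 6 and CDKN1A 9 of 15. In both Hs578T lists and not in MDA-MB-231 replicate 2 there were 4 regions (3.88%, against 5.51% genome-wide), in the windows of RB1, CDKN1A, CCND1 and CDK4. Among the large lists, MDA-MB-231 replicate 2 alone held 2 (1.94%, against 3.79%), in the windows of RB1 and CDKN1A. The regions missing from a list had lower folds within each list that held them. Their median was 2.73 against 6.53 for shared regions in MDA-MB-231 replicate 2, 2.60 against 6.48 in Hs578T replicate 1, and 3.04 against 6.10 in Hs578T replicate 2. By single peaks, 97.8% and 93.3% of the MDA-MB-231 replicate 2 peaks were overlapped in Hs578T replicates 1 and 2, and 93.6% of the Hs578T replicate 2 peaks in replicate 1. Over all peaks of these lists the same shares were 94.2%, 91.2% and 93.4%. In the other directions the shares were 89.6% of Hs578T replicate 1 in either of the other large lists, and 89.4% of Hs578T replicate 2 in MDA-MB-231 replicate 2. Over all peaks, 86.4% of Hs578T replicate 1 was overlapped in MDA-MB-231 replicate 2 and 88.8% in Hs578T replicate 2, and 87.9% of Hs578T replicate 2 in MDA-MB-231 replicate 2.

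AP-1 is the family of FOS and JUN factors that bind many enhancers. Distal peaks, over 2.5 kb from every start, numbered 51, 54 and 55 in the windows, and 21, 22 and 20 of them held an AP-1 motif. These shares were 41.2% (95% Wilson interval 28.8 to 54.8), 40.7% (28.7 to 54.0) and 36.4% (24.9 to 49.6), and among all distal peaks of the lists they were 51.9%, 51.1% and 50.3%. The interval thus held the share of all distal peaks in the first pair of lists and lay below it in Hs578T replicate 2. It covers counting error only. CDK6 held 10, 11 and 10 of the peaks with a motif, with 19, 20 and 19 motifs among them. CDKN2C and RB1 held none. To show the CDK6 motifs in their setting, 31 bases around 1 motif were taken from each of 4 strong intronic regions found in all large lists, along the strand of the gene, with the motif in capitals.
CDK6 intron, 26.7 kb after the start, chr7:92809868-92809898, minus strand: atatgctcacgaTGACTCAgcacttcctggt
CDK6 intron, 72.8 kb after the start, chr7:92763735-92763765, minus strand: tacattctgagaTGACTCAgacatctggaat
CDK6 intron, 84.1 kb after the start, chr7:92752425-92752455, minus strand: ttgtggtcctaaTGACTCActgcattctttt
CDK6 intron, 203.0 kb after the start, chr7:92633543-92633573, minus strand: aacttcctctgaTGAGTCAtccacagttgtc

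The first of these lay in a peak 3177, 2796 and 2369 bp wide with a fold of 9.45, 11.5 and 9.93, and the last in one 5914, 5698 and 5652 bp wide with a fold of 14.3, 11.5 and 10.7. The others lay in the peaks centred 70.4 kb (7101, 6260 and 6953 bp wide) and 86.0 kb after the start.

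To place the members among their partners, 57 further genes of the p53 and RB circuits were examined for a promoter peak. In the 3 large lists the call was the same for every gene, with 50 marked in all 3 and 7 in none, and the small list marked 0. Of all coding genes, as given above, 56.4% to 58.2% were marked per large list. The p53 circuit was marked for 6 of 7, including the phosphatase gene PPM1D (3749, 3990 and 3898 bp), and the exception was TP73. Of 20 p53 targets 17 were marked, led in width by the stress gene GADD45A (7645, 7660 and 7958 bp). The 3 without a peak were BTG2, SPATA18 and PHLDA3. BBC3, which encodes the apoptosis inducer PUMA, was 7948, 3194 and 2672 bp wide, so that MDA-MB-231 replicate 2 stood above both Hs578T lists. The death receptor gene FAS was marked weakly, with a fold of 2.65, 2.91 and 2.47. All 12 RB and E2F genes were marked, from E2F2 (385, 442 and 237 bp) to E2F7 (8337, 9205 and 9659 bp).

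Among the cyclins 5 of 6 were marked and CCND2 was not. CCNA2, the gene of cyclin A2, varied most, at 2517, 10525 and 4227 bp. All 7 genes of kinases and phosphatases were marked, WEE1 among them. Of 5 inhibitors 3 were marked, with CDKN2D the widest (6066, 5350 and 5556 bp). CDKN2A and CDKN2B, which encode the inhibitors p16 and p15, had no peak at the start in any list, and whether these genes are present in the lines was not tested. Thus of the INK4 genes, CDKN2C and CDKN2D were marked and the other pair was not.

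**Figure D5:**
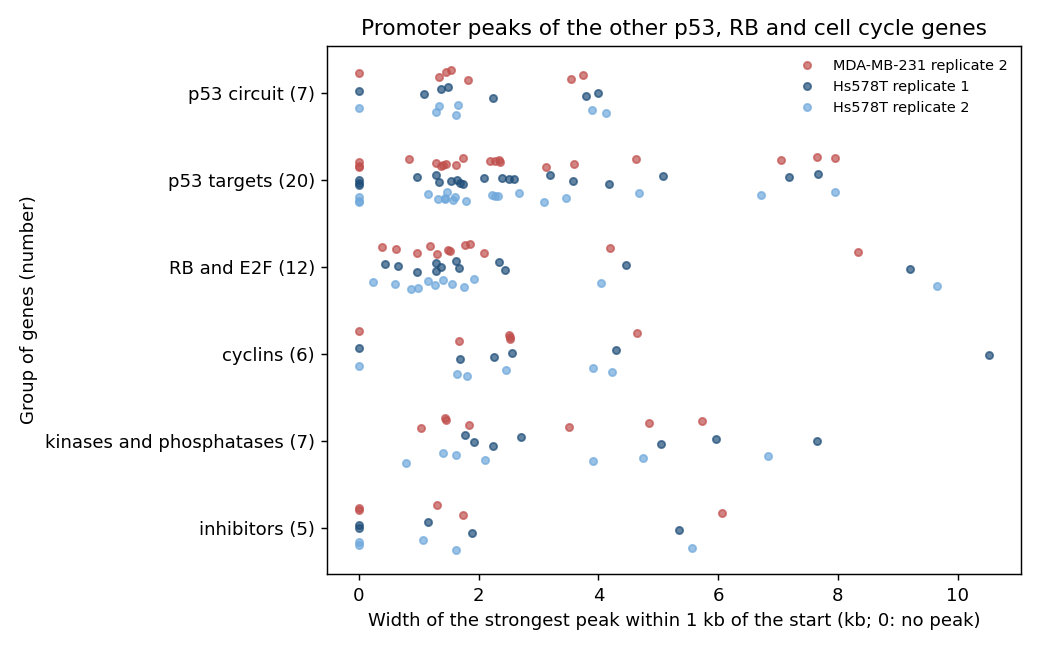
Width in kb of the strongest peak within 1 kb of the start for 57 genes of the p53 and RB circuits, by group, with 1 point per gene and large list and 0 for no peak. The 7 genes at 0 were at 0 in all 3 lists, and E2F7 reaches 9659 bp in Hs578T replicate 2.

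The gene most like each member in promoter peak was sought over the 3 large lists, by the distance in log2 width and in the rank of fold enrichment, where 0 is identity. RB1 was closest to TAX1BP3 (0.0858) and MDM2 to ANKRD13C (0.0862). CDKN1B was nearest to FOSL2 (0.160), whose peak was 13734, 15276 and 15632 bp wide. CDK6 was nearest to ZBTB7B (0.135), CDKN2C to H1-4 (0.133) and CDKN1A to SIGIRR (0.165). CDK4, CCND1 and CCNE1 were farthest from any other gene, with SAP130 (0.337), TNFRSF1A (0.428) and TFEB (0.440) as the nearest.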

How the data were processed

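H3K27ac ChIP-seq peaks of 4 libraries were analysed, grouped and numbered by the sample titles. Per the submitters' processing notes and the study's methods, the authors trimmed reads with Trimmomatic, mapped them to hg38 with Bowtie2, called peaks per library with MACS2 after input subtraction, and removed blacklisted regions with bedtools. deepTools is also named. Versions and MACS2 settings were not given in the sources used here. The deposited lists have 9 columns, as in broad peak output. Deposited for every peak were a score, which is 10 times the −log10 q-value cut to a whole number, −log10 p- and q-values, and the fold enrichment, a ratio to the background of that library. Read depth is unknown, and weak peaks depend on it and on the input.

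Each peak list was read on its own. Genes were placed by GENCODE release 44 (assembly 38). A promoter peak came within 1 kb of the Ensembl canonical start. A gene's window was its body and 100 kb on either side, with covered bases cut at its edges. Distal peaks lay over 2.5 kb from every canonical start. Where a window held several promoter peaks, the strongest was used. Percentiles are mid-ranks among coding genes of the same list, and those of promoter width and fold are among genes with a promoter peak. Large lists are those over 10000 peaks. Motifs were searched on both strands. The named genes were the 9 members, the coding gene at the strongest peak of each window, other strong neighbours chosen after their values were seen, a list of 57 pathway genes (1 more is not reported here), cell type markers, and 1 gene per member most like it. Members and lists were chosen with earlier results of these data known. The functions were tested on simulated data. Python 3.11.15, pandas 2.3.3, numpy 2.4.6, scipy 1.17.1, pysam 0.24.0 and matplotlib 3.10.9 were used.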

Additional observations from a re-analysis of the deposited data

How the results depend on the processing

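No paired analysis was possible because the values are descriptions of single lists and come from no test. In the same list order, the strongest 50% of peaks left 49, 51 and 48 peaks and 180, 190 and 171 kb in the members' windows. Flanks of 50 kb left 53, 56 and 55 peaks and 143, 153 and 142 kb, and flanks of 25 kb 45, 49 and 48 peaks and 136, 145 and 135 kb. A −log10 q of at least 5 left 198, 209 and 180 kb, 55 peaks in Hs578T replicate 2 and 0 in MDA-MB-231 replicate 1. These settings use fewer peaks or shorter windows by construction. The CCNE1 promoter peak of Hs578T replicate 2, with a −log10 q of 4.43, was lost at a −log10 q of at least 5. Members with a promoter peak fell from 9 to 6 in MDA-MB-231 replicate 2 and Hs578T replicate 1, and to 5 in Hs578T replicate 2, when the midpoint had to lie within 1 kb (CDKN1B, CCND1 and CDK6 were lost in each, and CDKN1A in the last), and widths and folds were identical under all 3 other promoter windows. The AP-1 share was 55.0%, 61.9% and 56.5% among the strongest 50% (67.8%, 67.5% and 66.7% of all distal peaks). It was 55.6% in Hs578T replicate 2 at a −log10 q of at least 5, and 21.6%, 20.4% and 20% in the central 500 bp. For these other settings the share of all distal peaks was not computed. Requiring overlap of 50% of both peaks gave 82.0% of MDA-MB-231 replicate 2 in each Hs578T list, 76.0% and 77.1% of Hs578T replicate 1 in MDA-MB-231 replicate 2 and Hs578T replicate 2, and 77.7% and 78.7% of Hs578T replicate 2 in MDA-MB-231 replicate 2 and Hs578T replicate 1. Among the strongest 50%, 95.8% of Hs578T replicate 2 was overlapped in MDA-MB-231 replicate 2 and 100% in Hs578T replicate 1. Leaving out a replicate gave 1 to 89 peaks for MDA-MB-231 and 94 to 96 for Hs578T. Beside the 162 identical widths and folds, 39 of 114 recomputed values moved past their error or by over 1.5 times, with the SD of the Hs578T pair as the error of covered bases. Depth limits every absence: a start without a peak is not shown to lack the mark.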
